A study of Homo sapiens with 6 samples.

Results

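Collagen chain genes encode the subunits of the collagens, the main structural proteins of the extracellular matrix. They were taken here as all genes with a symbol made of COL, a type number, A and a chain number, measured by probe sets that the array annotation assigns to exactly 1 gene. This gave 43 genes with 112 probe sets, of 19775 named genes and 54613 probe sets tested on the array. All 43 symbols were also those of RefSeq. Of the genes, 8 had 1 probe set and the others had up to 8.

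Collagen chains are made in the endoplasmic reticulum, where prolines and lysines are hydroxylated and chains of the right types wind into a common helix before secretion. Types I, II, III, V, XI, XXIV and XXVII form fibrils, type IV forms the network of basement membranes, and other types decorate fibrils, anchor epithelia or span the cell membrane. A chain whose partner is missing may not be assembled at all, so the chains of a type are usefully read together. Epithelial cells rest on basement membranes, and the type IV chains COL4A3, COL4A4 and COL4A5 make a network that is known from the lung alveolus and the kidney glomerulus.

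The arrays measured RNA of PC-9 cells, a non-small cell lung cancer line with an activating EGFR mutation that here carried a stably integrated GFP vector in both groups. The study asked how cancer cells reversibly tolerate drugs. The 3 drug-tolerant persister (DTP) arrays hold the cells that survived 2 µM erlotinib for 9 days, a drug that blocks the kinase activity of EGFR, and the 3 parental arrays hold cells in the vehicle DMSO. By the protocol in the labels, the drug was given from 80% confluency and DTPs were taken on day 10, while parental cells were collected on day 3, when the plates were 100% confluent. The series' own design text and the methods of the study give 9 days for both groups, and which holds is not settled here. Time in culture and cell density may therefore differ along with the drug, and their parts cannot be told apart. DTPs are the cells left from one line, so survival of a subset and change within cells cannot be told apart either, nor can fewer cells with a transcript and less of it per cell in any result below. The labels do not say whether the 3 arrays of a group came from separate cultures, so the p-values cover only the spread among these 6 arrays, which may be technical.

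All levels are deposited log2 values. The summary method gives no detection call, so levels were set against 7.29, the median of all non-control values, and a group mean below it was treated as dim. Array medians lay between 7.27 and 7.32. Epithelial markers were strong, with the mean level of 10 markers at 11.75 to 11.80 in DTPs and 11.48 to 11.51 in parental cells, although the lung lineage factor NKX2-1 stayed below the median in both. A probe set was called when its limma adjusted p was under 0.05 and its fold over 1.5. Unless another fit is named, adjusted p-values are limma's over all probe sets.

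Most collagen probe sets that were called were higher in DTPs, and they lay in a minority of the genes. Of the 112 probe sets, 28 were called higher in DTPs, 3 lower and 81 neither. Among all probe sets tested, 7.56% were called higher, 4.93% lower and 12.5% in either direction. With 1 probe set per gene, the brightest, 11 of 43 genes rose, 2 fell and 30 were not called, against 8.08% higher, 6.13% lower and 14.2% in either direction over all genes. The median log2 fold change was 0.01 over the collagen probe sets and -0.05 over all probe sets, so the middle of the family lay near that of the array. A further 16 collagen probe sets passed the adjusted p with a fold under 1.5, against 26.2% of all probe sets, with 5 of the 16 higher and 11 lower.

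The genes that rose were COL1A1, COL4A3, COL4A4, COL4A5, COL4A6, COL5A1, COL7A1, COL12A1, COL15A1, COL16A1 and COL18A1, and those that fell were COL13A1 and COL8A1. COL27A1 had 1 of 5 probe sets called higher, not its brightest. By structural class, 4 of 6 type IV genes rose, 2 of 11 fibril-forming genes, 2 of 10 fibril-associated genes, 2 of 2 multiplexins and the only type VII gene. None of the 5 type VI genes was called. Among the 3 transmembrane and the 3 short-chain network genes, 1 each fell and none rose.

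**Figure D1:**
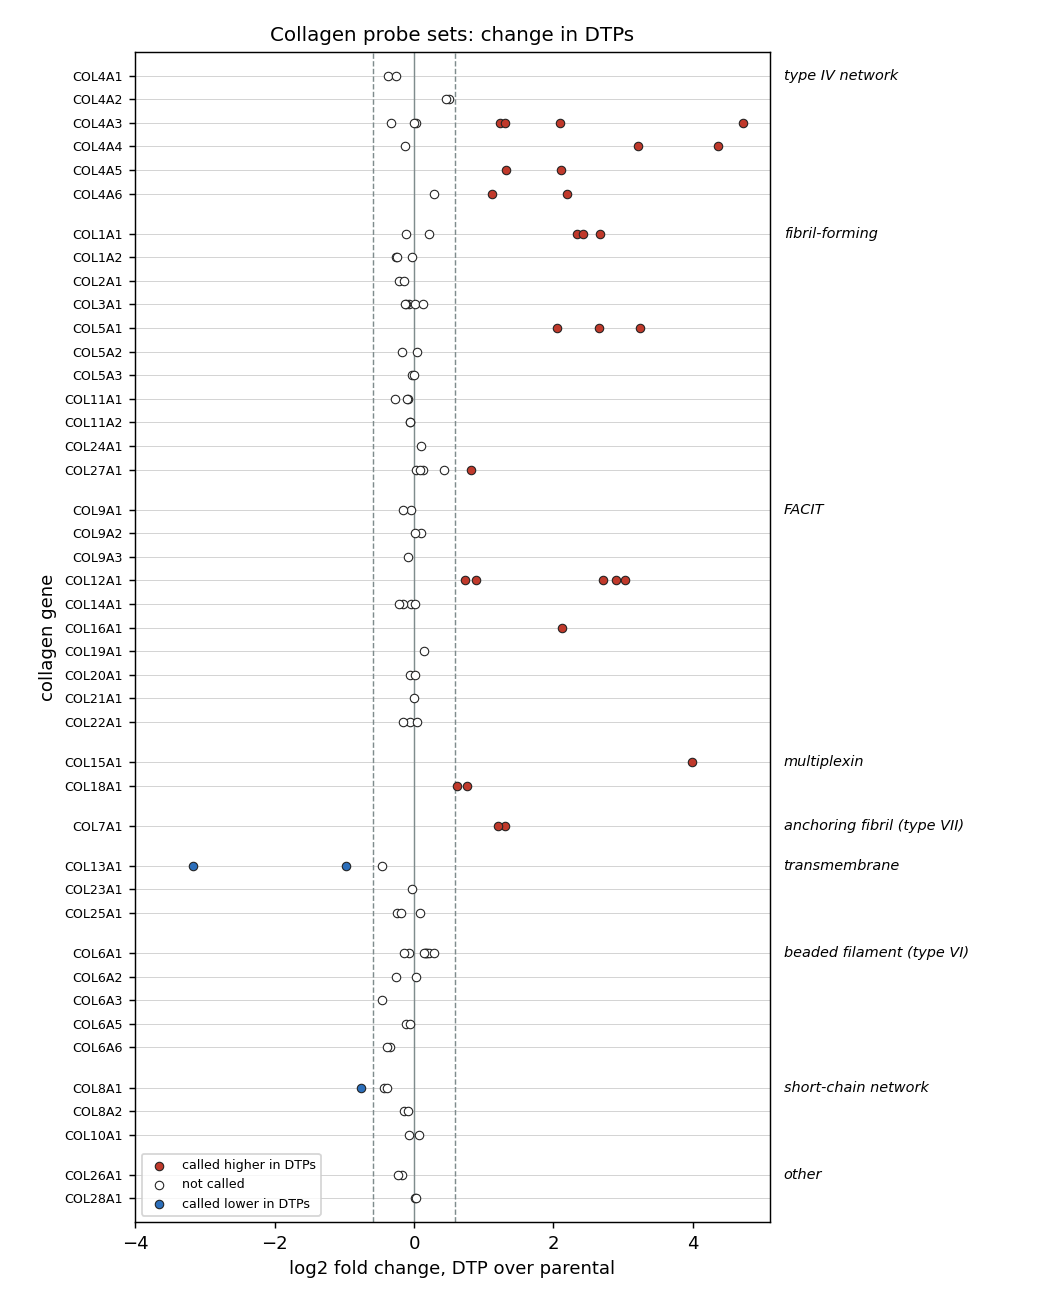
Each point is 1 of the 112 collagen probe sets, placed by its log2 fold change of DTP over parental cells (horizontal axis) and its gene (vertical axis, grouped by structural class), and the dashed lines mark a fold of 1.5. Red points were called higher, blue lower and white neither; the 28 red points lie in 12 genes, 4 of them in type IV, and the 3 blue points in COL13A1 and COL8A1.

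More collagen probe sets were above the array median in DTPs than in parental cells. In DTPs 53 of 112 had a group mean above 7.29 (47.3%), against 39 in parental cells (34.8%); among all probe sets the shares were 50.2% and 49.8%. Both means lay above it for 36 probe sets, only the DTP mean for 17 and only the parental mean for 3. At least 1 such probe set was found for 27 genes, and 16 genes had none. Averaged over the 28 probe sets called higher, arrays lay at 9.00 to 9.15 in DTPs and 6.90 to 6.94 in parental cells. These probe sets were chosen for that difference, which is a description here.

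The genes of the 6 type IV chains lie head to head on chromosomes 13, 2 and X, each pair transcribed in opposite directions from starts that lie close together. In the RefSeq annotation of GRCh38.p14, the starts of COL4A2 and COL4A1 lie 127 bases apart, those of COL4A3 and COL4A4 419 and those of COL4A5 and COL4A6 380, with a further COL4A6 start 1416 bases from that of COL4A5. The windows below, 250 bases before to 50 after a start, were chosen because the arrays allow each shared region to be read against its genes on both sides. Capitals mark the bases that also belong to the partner's window, 226 for COL4A2 and COL4A1, 82 for COL4A3 and COL4A4 and 121 for COL4A5 and COL4A6. The windows are chr13:110307034-110307333 (plus strand) for COL4A2, chr2:227164374-227164673 (plus strand) for COL4A3 and chrX:108439588-108439887 (plus strand) for COL4A5.
COL4A2: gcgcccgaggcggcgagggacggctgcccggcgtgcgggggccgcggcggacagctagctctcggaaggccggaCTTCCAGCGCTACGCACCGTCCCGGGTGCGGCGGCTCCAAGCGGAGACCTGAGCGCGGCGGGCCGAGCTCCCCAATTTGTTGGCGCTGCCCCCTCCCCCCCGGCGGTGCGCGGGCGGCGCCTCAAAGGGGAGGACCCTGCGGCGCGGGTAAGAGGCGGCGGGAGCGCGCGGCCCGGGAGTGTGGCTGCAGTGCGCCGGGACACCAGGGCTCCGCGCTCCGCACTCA
COL4A3: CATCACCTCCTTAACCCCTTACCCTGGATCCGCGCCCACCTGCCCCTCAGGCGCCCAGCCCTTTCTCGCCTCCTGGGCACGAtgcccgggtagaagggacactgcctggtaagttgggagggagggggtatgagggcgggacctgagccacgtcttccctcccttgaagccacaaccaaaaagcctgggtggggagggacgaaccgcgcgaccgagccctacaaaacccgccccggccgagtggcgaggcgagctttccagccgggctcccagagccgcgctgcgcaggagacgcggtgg
COL4A5: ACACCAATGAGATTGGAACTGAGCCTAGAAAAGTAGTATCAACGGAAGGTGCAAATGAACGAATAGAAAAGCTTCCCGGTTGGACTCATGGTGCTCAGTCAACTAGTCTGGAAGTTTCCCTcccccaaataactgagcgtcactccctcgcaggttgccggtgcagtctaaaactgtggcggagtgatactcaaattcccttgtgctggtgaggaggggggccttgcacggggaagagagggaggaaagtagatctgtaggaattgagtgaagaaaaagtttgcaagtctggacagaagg

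The pairs differed in base composition. The G and C content was 77.7% for COL4A2 and 76.7% for COL4A1, 67.7% for COL4A3 and 74.0% for COL4A4, and 49.3% for COL4A5 and 43.7% for COL4A6, against a median of 58.7% over all RefSeq windows of this length. Both strands were searched for 3 motifs over 35116 RefSeq windows. The letters CCAAT are held by 34.6% of those windows, and were found 1 time each in the COL4A2 and COL4A1 windows, 2 times in that of COL4A5 and 3 times in that of COL4A6. The letters GGGCGG are held by 45.0% and were found 1 time in the COL4A2 window and 2 times each in those of COL4A1 and COL4A3. The letters TATAAA are held by 11.5% and were in none of the 6. No matches of different motifs overlapped. A match of letters is a description and not a bound site.

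COL4A3 and COL4A4, whose chains assemble with COL4A5, had the largest rises of the family on single probe sets. COL4A3 by probe set 222073_at had 9.17, 9.46 and 9.17 in DTPs, against 4.51, 4.65 and 4.49 in parental cells. The DTP arrays were all far above the median and the parental arrays all far below it, a rise of 4.71 ± 0.09 in log2 (SE, n = 3 each) or 26.3-fold (limma adjusted p = 2.8e-11). COL4A4 by 229779_at had 9.48, 10.02 and 9.84 in DTPs, against 5.67, 5.05 and 5.54 in parental cells, and by 214602_at 9.49, 9.87 and 9.97, against 6.56, 6.45 and 6.71 in parental cells. The groups did not overlap on either probe set, with rises of 4.36 ± 0.16 and 3.21 ± 0.12 (limma adjusted p = 2.7e-09 and 2.6e-09). The parental means were below the median, where folds on this scale can understate a change.

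Not all probe sets of these genes moved. Of the 7 for COL4A3, 4 were called higher, those beside 222073_at with log2 fold changes of 2.09 (216893_s_at), 1.30 (216898_s_at) and 1.23 (214641_at, the brightest over all 6 arrays). The 3 not called were dim in both groups, and 1 of them, 216367_at, had a log2 fold change of -0.33. COL4A4 had 1 uncalled, dim probe set of 3, at -0.12. Averaged over its probe sets, COL4A3 had a log2 fold change of 1.29 and COL4A4 of 2.48.

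COL4A5, which takes part in networks with COL4A3 and COL4A4 and with COL4A6, was already well above the median in parental cells. By 213110_s_at it had 12.07, 11.90 and 12.01 in DTPs, against 9.96, 9.79 and 9.93 in parental cells. All 3 DTP arrays lay above all parental arrays, a rise of 2.11 ± 0.08 or 4.30-fold (limma adjusted p = 2.7e-09), and its other probe set rose by 1.32 ± 0.11. COL4A6, its head-to-head neighbour, had 9.12, 8.91 and 9.22 in DTPs by 213992_at, against 6.90, 6.91 and 6.84 in parental cells. Its DTP arrays were above and its parental arrays below the median, a rise of 2.20 ± 0.09 (limma adjusted p = 4.3e-09). A further COL4A6 probe set rose by 1.12 and the last, dim in both groups, had a log2 fold change of 0.28, so that the mean over probe sets was 1.20.

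The COL4A1 and COL4A2 chains, which make the common network of nearly all basement membranes, were not called. COL4A1 by 211980_at had 8.65, 8.61 and 8.79 in DTPs, against 9.02, 9.14 and 9.02 in parental cells. COL4A2 by 211966_at had 7.39, 7.42 and 7.50 in DTPs, against 6.79, 7.09 and 7.07 in parental cells. The groups did not overlap for either gene, with COL4A1 lower in DTPs and COL4A2 higher. The log2 fold changes were -0.38 ± 0.08 and 0.46 ± 0.09, both under the fold minimum (limma adjusted p = 0.0020 and 0.0016). The other COL4A1 probe set had -0.26 with overlapping groups, and the other COL4A2 probe set, dim in both groups, 0.50. With arrays centred on hybridization spike-ins COL4A2 was called higher, at 0.65 and 0.60.

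**Figure D2:**
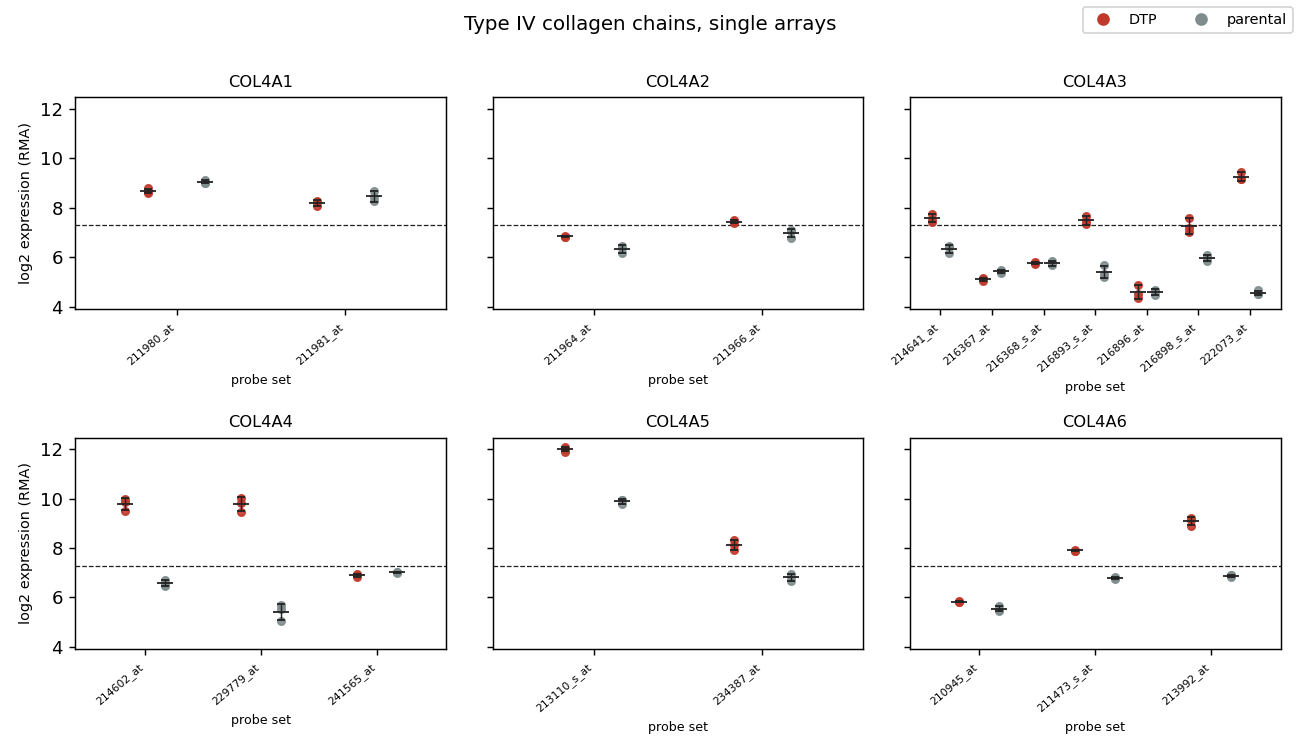
Each panel is 1 type IV gene, with its probe sets along the horizontal axis and log2 expression on the vertical axis; points are single arrays, DTP in red left of parental in grey, bars show the mean and SD (n = 3 each), and the dashed line is the median of all values, 7.29. DTP arrays lie well above parental arrays for COL4A3 to COL4A6 on 10 of 15 probe sets, while the 4 probe sets of COL4A1 and COL4A2 shift by at most 0.50.

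Chains of the same collagen type were compared in 7 pairs for how far they moved. The pairs were chosen after their values were seen, and each difference is that between the log2 fold changes of the brightest probe sets. The log2 fold change of COL1A1 was 2.93 above that of COL1A2, that of COL5A1 2.61 above COL5A2 and 2.66 above COL5A3, that of COL4A5 2.48 above COL4A1, and that of COL4A2 0.83 above COL4A1. For each of these 5 pairs the exact two-sided permutation p was 0.10, the smallest that 3 against 3 arrays allow (0.117 adjusted over the 7 pairs). The p-values of all 7 pairs do not cover the choice of the pairs and are given as descriptions. COL4A5 and COL4A6 differed by -0.09 (exact permutation p = 0.40, adjusted 0.40), with array values of -0.05, -0.01 and -0.22 in DTPs and 0.05, -0.13 and 0.08 in parental cells around the parental mean. COL4A3 minus COL4A4 was -1.97 (exact permutation p = 0.10, adjusted 0.117), but the most strongly changed COL4A3 probe set moved more than any COL4A4 probe set. With the mean over all probe sets of each gene, an alternative chosen after seeing the data, the difference was 1.68 for COL1A1 and COL1A2, -1.19 for COL4A3 and COL4A4 and 0.52 for COL4A5 and COL4A6.

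COL1A1, the main chain of the type I fibrils of connective tissue, rose on 3 of its 5 probe sets. By 1556499_s_at it had 10.94, 11.12 and 11.27 in DTPs, against 8.62, 8.40 and 8.30 in parental cells. By 202310_s_at it had 9.89, 10.12 and 10.05 in DTPs, against 7.63, 7.72 and 7.69 in parental cells. All DTP arrays lay above all parental arrays on both, with rises of 2.67 ± 0.10 and 2.34 ± 0.08 (limma adjusted p = 3.8e-09 and 1.2e-09), and 202311_s_at rose by 2.43 ± 0.20. The other 2 were not called, 217430_x_at at 0.22 and 202312_s_at at -0.12, and the mean over all 5 was 1.51. The suffix _s_at marks probes shared by several transcripts, and _x_at probes that may bind other genes; COL1A1 has no probe set free of both.

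COL1A2, the partner of COL1A1 in type I collagen, was not called. By 202403_s_at it had 7.58, 7.66 and 7.51 in DTPs, against 8.03, 7.70 and 7.80 in parental cells. The groups lay near the median, with all DTP arrays below all parental arrays and a log2 fold change of -0.26 ± 0.09 (limma adjusted p = 0.039). The other 2 probe sets had means below the median, at -0.24 and -0.02. COL3A1, the fibril chain that accompanies type I in soft tissue, was dim on every probe set and was not called.

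COL5A1, a chain of the type V fibrils that nucleate type I fibrils, rose on all 3 of its probe sets. By 212488_at it had 9.90, 10.12 and 10.00 in DTPs, against 7.56, 7.37 and 7.14 in parental cells, and by 212489_at 9.38, 9.73 and 9.42, against 6.38, 5.91 and 6.51 in parental cells. The groups did not overlap on either, with rises of 2.65 ± 0.10 and 3.25 ± 0.14 (limma adjusted p = 3.9e-09 and 1.1e-08), and 203325_s_at rose by 2.05. Of its partners in type V collagen, COL5A2 was dim, with 5.56, 5.41 and 5.49 in DTPs and 5.45, 5.46 and 5.43 in parental cells by 221729_at, and COL5A3 lay close to the median. The groups overlapped on all 4 probe sets of these partners, with log2 fold changes of 0.04 and -0.18 for COL5A2 and -0.04 and -0.01 for COL5A3. COL27A1, a fibril-forming chain of cartilage, had 6.39, 6.83 and 6.83 in DTPs by 225288_at, against 6.00, 5.93 and 5.68 in parental cells. This rise of 0.82 ± 0.12 (limma adjusted p = 0.00027) lay below the median in both groups, and the brightest probe set of the gene was not called at 0.43.

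COL12A1, a collagen of the FACIT class, whose members attach to the surface of fibrils, rose on all 5 of its probe sets. By 225664_at it had 11.36, 11.31 and 11.47 in DTPs, against 8.50, 8.31 and 8.25 in parental cells. By 231879_at it had 10.03, 10.01 and 10.02 in DTPs, against 7.15, 7.19 and 7.03 in parental cells. The groups were far apart on both, with rises of 3.03 ± 0.08 and 2.89 ± 0.07, or 8.15-fold and 7.43-fold (limma adjusted p = 3.5e-10 and 1.5e-10). Another probe set rose by 2.70 and the other 2 by 0.89 and 0.74, the last of these dim in both groups and not called without parental replicate 1, and the mean over the 5 was 2.05. COL16A1, another FACIT chain, had 8.96, 9.18 and 8.98 in DTPs on its only probe set, against 6.65, 7.22 and 6.86 in parental cells. Its groups did not overlap, with a rise of 2.13 ± 0.13 or 4.37-fold (limma adjusted p = 1.2e-07).

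The multiplexins are basement membrane collagens that carry glycosaminoglycan chains. COL15A1 had 9.02, 8.73 and 9.17 in DTPs on its only probe set, against 4.76, 5.16 and 5.03 in parental cells. Its DTP arrays lay well above and its parental arrays well below the median, a rise of 3.99 ± 0.12 or 15.9-fold (limma adjusted p = 7.2e-10). COL18A1, the precursor of endostatin, was above the median in both groups, with 9.57, 9.95 and 9.61 in DTPs by 209081_s_at, against 9.04, 9.15 and 9.10 in parental cells. Its rises were small, 0.61 ± 0.10 there and 0.76 ± 0.09 by 209082_s_at (limma adjusted p = 0.00042 and 3.3e-05), and without DTP replicate 2 the first was 0.49 and was not called. COL7A1, which forms the fibrils that anchor epithelial basement membranes to the tissue below, had 9.88, 9.86 and 9.52 in DTPs by 217312_s_at, against 8.41, 8.71 and 8.53 in parental cells. It rose by 1.20 ± 0.11 there and by 1.30 ± 0.09 on its other probe set (limma adjusted p = 3.9e-06 and 3.4e-07), and the groups overlapped on neither.

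COL13A1, a transmembrane collagen found at cell adhesions, had the largest fall of the family. By 211343_s_at it had 7.59, 7.87 and 8.12 in DTPs, against 11.10, 10.94 and 11.05 in parental cells. All DTP arrays lay below all parental arrays, a fall of 3.16 in log2 (SE 0.11) or 8.97-fold (limma adjusted p = 2.2e-09), although the DTP arrays were still above the median. Of its other 2 probe sets, 211809_x_at fell by 0.97 and 208535_x_at was not called at -0.46, so that the mean over the 3 was -1.53. COL8A1, a short-chain collagen of vessel walls and the cornea, had 5.28, 5.14 and 5.32 in DTPs by 226237_at, against 6.01, 6.01 and 5.99 in parental cells. The groups did not overlap, with a fall of 0.75 (limma adjusted p = 7.3e-06), but every array was below the median and the mean over its 3 probe sets, -0.53, was under the fold minimum.

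**Figure D3:**
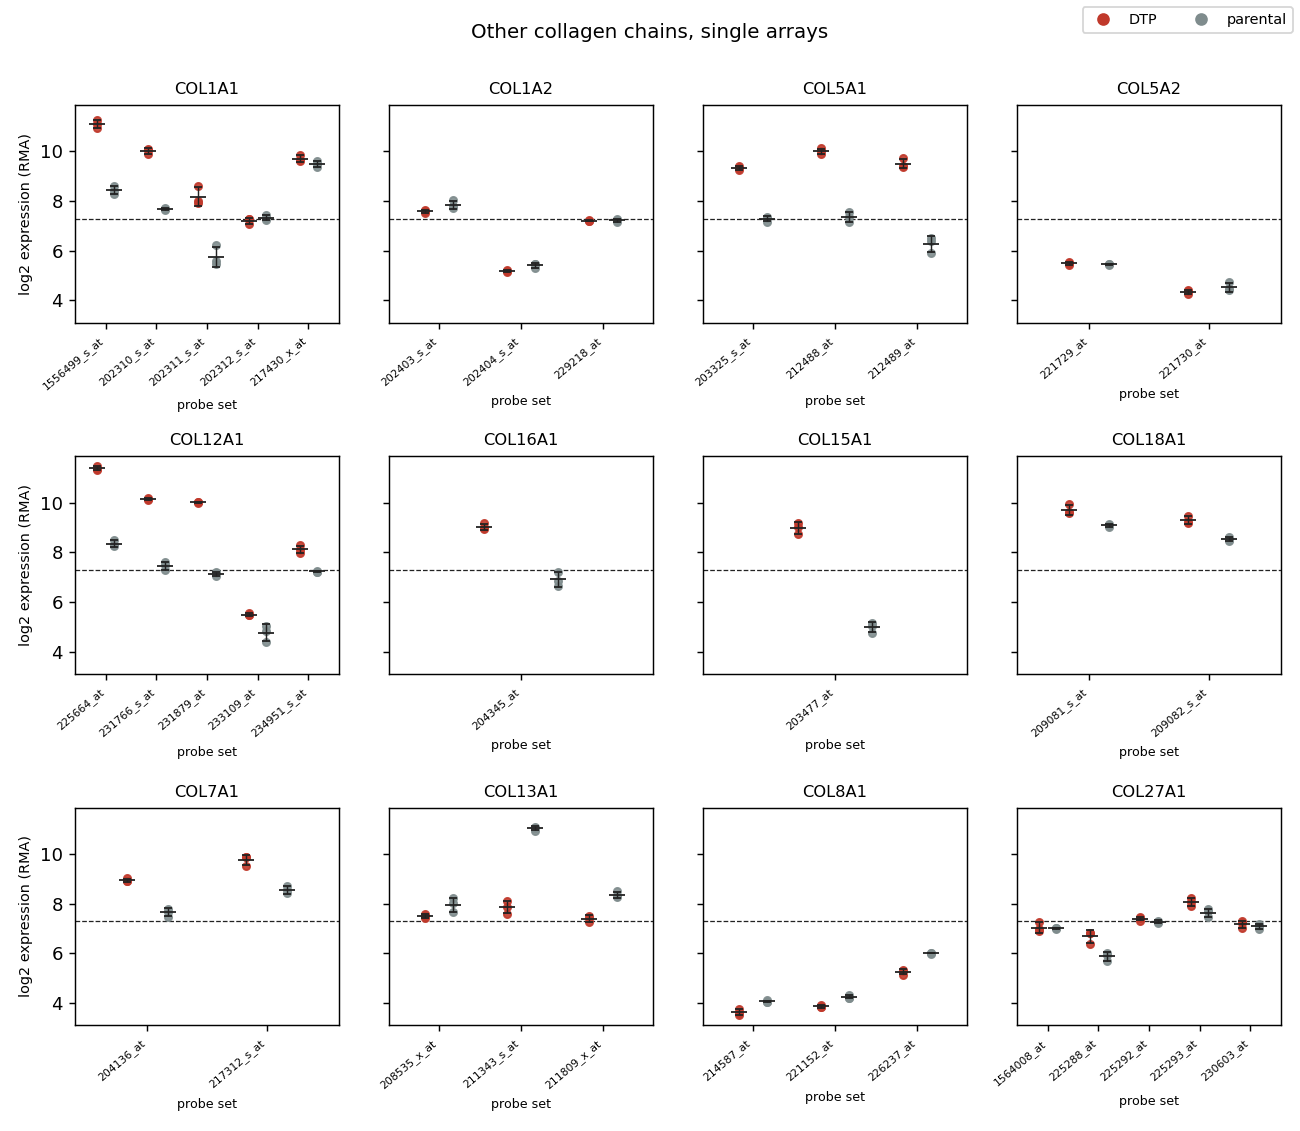
Each panel is 1 gene, with its probe sets along the horizontal axis and log2 expression on the vertical axis; points are single arrays, DTP in red left of parental in grey, bars show the mean and SD (n = 3 each), and the dashed line is the median of all values, 7.29. DTP arrays lie above parental arrays on every probe set of COL5A1, COL12A1, COL16A1, COL15A1, COL18A1 and COL7A1, below them on those of COL13A1 and COL8A1, and close to them for COL1A2 and COL5A2.

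The remaining 29 genes had no called probe set among 67, with log2 fold changes from -0.46 to 0.50. Among them 14 had a group mean above the median. Type VI collagen, the beaded filament that links basement membranes to the matrix around cells, had probe sets well above the median in both groups. COL6A1 had 11.79, 11.79 and 11.89 in DTPs by 213428_s_at, against 11.60, 11.44 and 11.56 in parental cells. The groups did not overlap, but the difference was 0.29 (limma adjusted p = 0.0083), and the 8 probe sets of COL6A1 lay between -0.15 and 0.29. COL6A2 had -0.26 and 0.03 and COL6A3 had -0.46 ± 0.08, the lowest value among the uncalled genes, with DTP arrays at 7.28, 7.13 and 7.19 and parental arrays at 7.55, 7.78 and 7.64 (limma adjusted p = 0.00072).

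Others with a mean above the median were chains better known from cartilage or from narrower sites, and none was called. COL11A2, a cartilage fibril chain, had -0.05 on both of its probe sets, and COL2A1, the main fibril chain of cartilage, -0.22 on the probe set above the median. COL9A1 and COL9A2, which coat cartilage fibrils, lay between -0.15 and 0.09, COL22A1 had 0.05, COL8A2 had -0.08 and COL26A1 had -0.17 and -0.23. The last 15 uncalled genes, COL3A1, COL5A2, COL6A5, COL6A6, COL9A3, COL10A1, COL11A1, COL14A1, COL19A1, COL20A1, COL21A1, COL23A1, COL24A1, COL25A1 and COL28A1, had no mean above the median on any of 32 probe sets. Their log2 fold changes lay between -0.39 and 0.14.

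Genes that modify, fold, export, process and crosslink collagens were read from lists of known function, with the gene-level fit. Of 14 measured genes of prolyl and lysyl hydroxylation and glycosylation, 4 rose and none fell, against 8.08% higher and 6.13% lower over all genes, and the list's median log2 fold change was 0.17, against -0.05 over all genes. P3H2, a prolyl 3-hydroxylase of basement membrane collagen, had 11.89, 11.81 and 12.00 in DTPs, against 10.15, 10.16 and 10.09 in parental cells, and P4HA2, a subunit of prolyl 4-hydroxylase, 10.66, 10.62 and 10.82, against 9.10, 9.00 and 9.16 in parental cells. Their groups did not overlap, with rises of 1.77 ± 0.07 and 1.61 ± 0.08 (limma adjusted p = 7.7e-10 and 3.7e-09). The prolyl 3-hydroxylase P3H1 rose by 0.95 and the lysyl hydroxylase PLOD1 by 0.73. The mean over probe sets, an alternative chosen after seeing the data, gave 0.93 for P3H2 and 0.77 for P4HA2.

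Of 10 measured genes of folding and export, 4 rose and 1 fell (median 0.35), against the same shares over all genes. SERPINH1, the collagen chaperone HSP47, had 12.32, 12.48 and 12.27 in DTPs, against 11.43, 11.53 and 11.70 in parental cells. It rose by 0.80 ± 0.09 with no overlap (limma adjusted p = 6.3e-06). FKBP7, a prolyl isomerase of the endoplasmic reticulum, rose by 1.69 ± 0.09, SEC23A, a coat protein of export vesicles, by 0.70, and MIA2, which helps large cargo leave the endoplasmic reticulum, fell by 1.23. The fourth that rose, SEC24D, another coat protein, had 0.59 and was not called without DTP replicate 1, DTP replicate 2 or parental replicate 3. With the mean over probe sets, MIA2 had -0.66, SEC23A 0.53 and SEC24D 0.53.

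For genes that act after export, the counts are to be read against the same 8.08% higher and 6.13% lower over all genes. Of 10 genes of propeptide removal, BMP1, the enzyme that cleaves the C-terminal propeptide of fibril collagens, rose by 1.32 ± 0.08 (0.76 with the mean over probe sets) and PCOLCE2, which enhances that cleavage, fell by 0.79. Of 6 crosslinking genes LOXL4 rose by 1.12 ± 0.10 (0.56 with the mean over probe sets) and LOXL1 fell by 1.34 with a level of 11.69, 11.76 and 11.86 in DTPs, against 13.08, 13.11 and 13.13 in parental cells. LOX itself had -0.54 (-0.70 with the mean over probe sets) and was called lower without DTP replicate 2. Of 12 measured receptors none was called. The smallest p-values were those of the integrin chain ITGB1 at 0.45 and its partner ITGA1, dim in both groups, at 0.33. Of 11 degradation genes CTSL, a lysosomal protease, fell by 1.84 ± 0.09 (limma adjusted p = 4.1e-09) and MMP9, a protease that cleaves type IV collagen, rose by 0.66 ± 0.07. MMP14, the membrane-bound collagenase, was not called at 0.33, but had 0.83 with the mean over probe sets. The list medians for removal, crosslinking, receptors and degradation were 0.02, 0.13, -0.02 and 0.05.

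**Figure D4:**
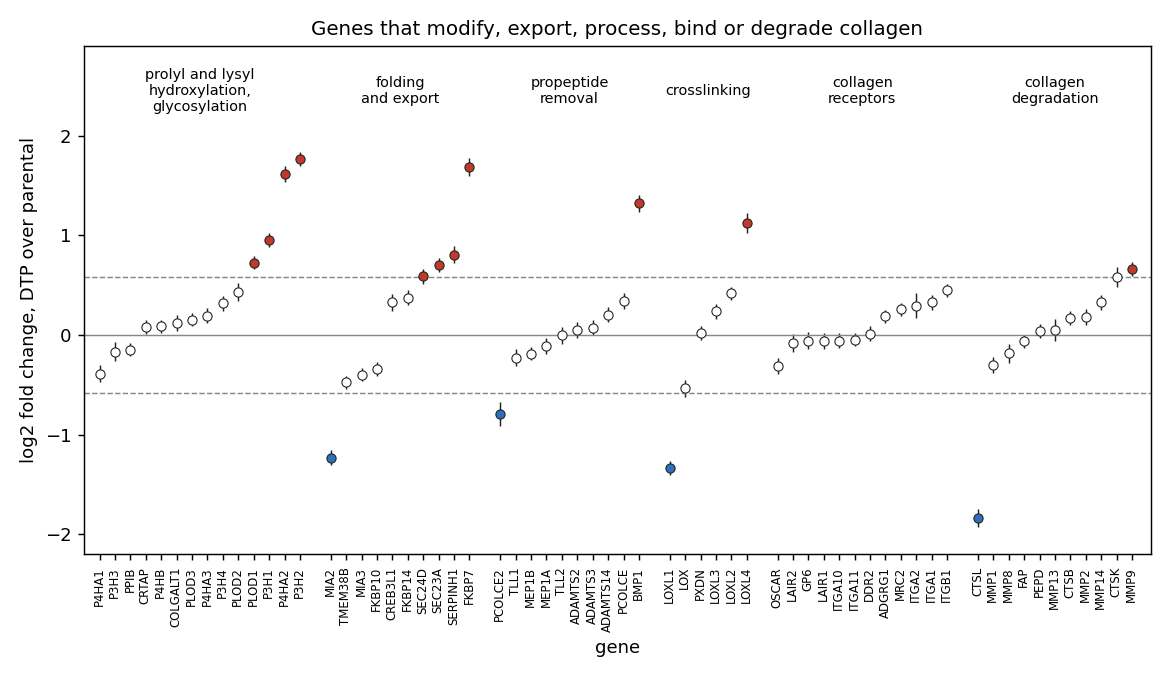
Each point is 1 gene that modifies, folds, exports, processes, crosslinks, binds or degrades collagen, ordered within its list by log2 fold change of DTP over parental cells (vertical axis) with bars of 1 SE, and dashed lines mark a fold of 1.5. Red points were called higher, blue lower and white neither; 4 of 14 hydroxylation and glycosylation genes and 4 of 10 folding and export genes are red, against 8.08% of all genes, and the other lists have at most 1 red point each.

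Markers of fibroblasts, endothelium, blood and lung epithelium were read beside these results. Over all genes 8.08% were called higher and 6.13% lower. Of 12 fibroblast markers 2 were called higher, FBLN1 by 0.88 and MFAP5 by 0.98, the second below the median in both groups. Only 3 of the 12, PDGFRA, THY1 and FBLN1, had a group mean above the median on the probe set used. LUM, DCN, DPT, PDGFRB, TCF21, OGN, PDPN and ASPN had none, like MFAP5. With the mean over probe sets LUM had 0.60 (0.00 with the brightest), MFAP5 0.60 and FBLN1 0.44. The mean level of the list was 6.74 to 6.81 in DTPs and 6.67 to 6.69 in parental cells. Of 8 endothelial markers PECAM1 was called lower, by 0.69, and the list's mean level was 7.36 to 7.49 in DTPs and 7.57 to 7.61 in parental cells. PECAM1 had -1.29 with the mean over probe sets. None of 6 measured blood markers was called, although ITGAM, at 0.16 on its brightest probe set, had 0.66 with the mean over probe sets. Among the 10 epithelial markers KRT7 was called higher at 0.97 (0.38 with the mean over probe sets), and ELF3, not called at 0.48, had 0.89 with that mean. Beside 3 of 12 fibroblast markers, a group mean above the median was found for 5 of 8 endothelial, 3 of 6 blood and 9 of 10 epithelial markers. The median is no detection limit, so such a mean does not show that a gene was expressed. The part of these markers in the collagen differences was not tested.

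RNA quality, read from control probe sets at both ends of long-known transcripts, differed slightly. For GAPDH the 3′ probe set minus the 5′ probe set, in log2, was -0.18 ± 0.00 in DTPs and -0.15 ± 0.02 in parental cells, and for ACTB it was 0.06 ± 0.03 in DTPs and 0.17 ± 0.03 in parental cells (SD, n = 3 each). The groups did not overlap for either (exact permutation p = 0.10, the smallest possible here). Its part in the collagen differences was not tested.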

How the data were processed

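The series holds 6 Affymetrix Human Genome U133 Plus 2.0 arrays, 3 of DTPs and 3 of parental cells. The authors deposited log2 values per probe set, made by robust multi-array averaging (RMA, affy package; versions not given in the sources used here), with quantile normalization between arrays, which hides shifts in total mRNA. They carry no depth, and the number of arrays limits precision. Of 54675 probe sets, 62 controls were left out and 54613 tested. Of these 41091 had 1 gene symbol, 1801 several and 11721 none.

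The comparison used R 4.3.3 and limma 3.58.1, without covariates, as a two-sided test (lmFit, eBayes) with Benjamini-Hochberg adjustment over all probe sets, and over genes by the probe set with the highest mean, _x_at excluded where another existed. Intervals of replicates are SD and those of fold changes SE. The fit was checked on simulated data. Every collagen gene with a called probe set or a mean above the median was described, the others were listed, and up to 4 called genes per further list were named, or 2 by smallest p. SEC24D, LOX, MMP14, CTSK, ITGAM, ELF3 and markers that were not called are named beyond this rule, after their values were seen. Members and lists were chosen with earlier results of these data known. Promoter windows and starts are from RefSeq (GRCh38.p14), which had windows for 31 of the 43 genes. Arrays were treated as unpaired. Same-numbered deviations correlated at -0.12, 0.02 and -0.06, and those of unlike numbers at up to 0.15. With 3 arrays a group this cannot settle whether replicate numbers pair the arrays. Alternatives covered normalization, filters, thresholds, variance models, probe set choice and leaving out each array.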

Additional observations from a re-analysis of the deposited data

How the results depend on the processing

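No collagen call changed direction under any alternative run. Leaving out each array in turn gave 27 to 28 probe sets higher and 3 to 4 lower, and 10 to 11 genes higher and 2 lower each time. Of all probe sets 7.25% to 7.85% were higher and 4.74% to 5.45% lower in these fits. COL18A1 was lost without DTP replicate 2, and without parental replicate 1 the dim COL12A1 probe set was lost and COL13A1 208535_x_at was gained. With the replicate number as a block the counts were 28 and 3 probe sets and 11 and 2 genes, as without it. Of all probe sets 7.56% were then higher and 4.93% lower. The fold minimum mattered most for the falls. Without one, 14 collagen probe sets and 7 genes were lower (33 and 14 higher), against 20.1% of all probe sets lower and 18.6% higher. With a fold over 2 only 1 probe set and 1 gene, COL13A1, were lower (23 and 10 higher), against 1.62% and 3.09% of all. Among probe sets with a mean at or above the median 1 gene was lower, as with the mean over all probe sets of a gene; in both COL8A1 was no longer called. That filter, on the mean over all 6 arrays, also left out COL4A3 and COL15A1, whose DTP means alone reached above the median, and 9 genes were higher. Of the 48 collagen probe sets it kept, 20 were higher and 2 lower, against 11.1% and 8.03% of all probe sets kept. Of the 69 probe sets with neither suffix 15 were called higher and 1 lower, a count over fewer probe sets. The share over all probe sets with neither suffix is not given here, so this count cannot be read against the array. Centring on hybridization spike-ins moved the median of all probe sets to 0.10 and gave 30 probe sets and 12 genes higher, with COL4A2 added. Of all probe sets 10.9% were then higher and 3.11% lower. That centring also called ITGB1. CTSK was called under it, under ribosomal centring and without DTP replicate 2, DTP replicate 3 or parental replicate 2. A t-test with Benjamini-Hochberg adjustment gave 27 probe sets higher and 3 lower, against 7.21% and 4.71% of all probe sets. The methods name that test for other measurements and limma for the arrays. The dim COL12A1 probe set was lost with it too. The values hold no measure of signal over background, so whether a dim probe set had any target is not known.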
